A study of Homo sapiens with 2 samples.

Results

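Cytotoxic cells at day 14 of lymphoid culture were the 1155 cells selected on their own transcripts from 8929 kept cells of the day 14 library, out of 21043 kept cells in both libraries. A cell was chosen by having at least 30 unique molecular identifiers (UMIs, single captured transcripts) of *GNLY* and at least 3 UMIs in all of *CCL5*, *CCL4*, *GZMB*, *XCL1*, *XCL2* and *KLRD1*. They made up 12.9% of the day 14 library (exact 95% binomial interval 12.2 to 13.6). The comparison cells were the 7127 day 14 cells with fewer than 30 *GNLY* and at least 10 *CD3D* UMIs. The other day 14 cells were 313 with at least 30 *GNLY* UMIs but fewer than 3 effector UMIs, called effector-low cells here, and 334 with little *GNLY* and little *CD3D*.

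Both libraries came from H1, an established human embryonic stem cell line. The cells were differentiated to blood precursors over 12 days, then cultured with OP9-DLL4, a mouse stromal line that presents the Notch ligand DLL4, and sorted on CD7, an early surface protein of T and NK cells. There was 1 droplet library after 10 days and 1 after 14 days of co-culture, made with a 3′ protocol, and no genetic change or drug distinguishes them. Since there were no replicates, no test was made, all intervals cover counting error only, and the day cannot be told apart from the library.

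Granulysin, the product of *GNLY*, is a membrane-lysing protein kept in the granules of NK cells and cytotoxic T cells together with perforin and granzymes. On contact with a target cell, the granules are released, and the cells also secrete chemokines such as CCL3, CCL4, CCL5, XCL1 and XCL2. NK cells sense targets through receptors encoded in the germline, among them the KLR family, whereas T cells use a rearranged T cell receptor (TCR) bound to CD3 chains. Thymocytes rearrange the TCR genes with the RAG1 and RAG2 recombinase and pass through a stage that carries CD4 and both CD8 chains.

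The kept day 14 cells had a median of 15029 UMIs and those of day 10 a median of 16174, and 29 kept barcodes occurred in both libraries. The cytotoxic cells were shallower than the comparison cells, with medians of 11245 and 16391 UMIs. Shares of cells with a UMI are therefore given after each cell was thinned at random to 5000 UMIs, which left out 71 cytotoxic and 92 comparison cells. A set of 68 cytotoxic cells, cluster 6 below, had a median of 26048 UMIs, and 97.1% of them were among the cells with the highest scores of Scrublet, a caller of barcodes that hold more than 1 cell. Several results that moved with these cells are given with and without them. Other levels of the cytotoxic cells include them.

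The day 14 cells showed no gap in *GNLY* at the limit of 30 UMIs. There were 388 cells at 3 to 9 UMIs, 179 at 10 to 19, 150 at 20 to 29, 89 at 30 to 39 and 172 at 40 to 59. Of the 8929 cells, 4447 had no *GNLY* UMI and 2297 had 1 or 2, whereas the cytotoxic cells had a median of 154 and up to 1041 per cell. *GNLY* (ENSG00000115523, chr2:85685175-85698852) made up 1.52% of all UMIs of the cytotoxic cells. Levels are given in CPM, the UMIs of a gene in a group for each 1000000 UMIs of that group. The level of *GNLY* was 15229 CPM in cytotoxic, 8824 CPM in effector-low and 77.5 CPM in comparison cells.

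**Figure D1:**
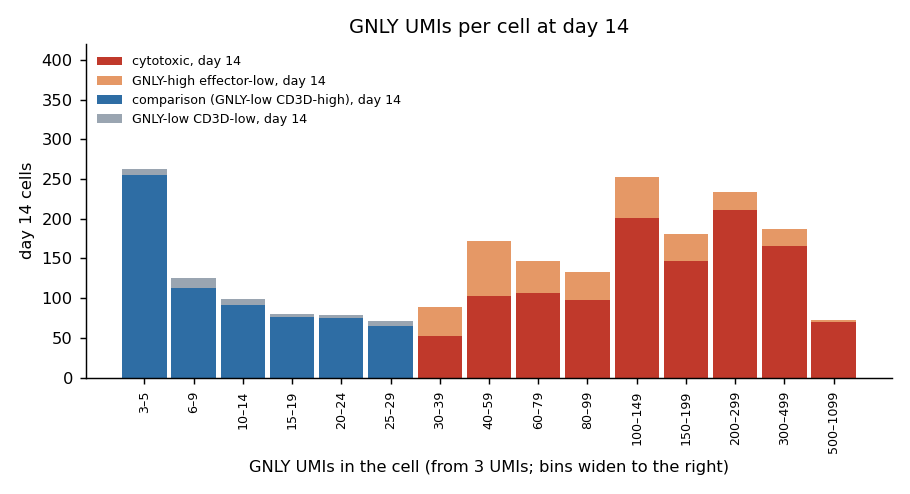
Number of day 14 cells (vertical axis) by the number of *GNLY* UMIs in the cell (horizontal axis, bins of unequal width from 3 UMIs on), stacked and coloured by the 4 groups. Cells with 0 to 2 UMIs are not drawn, and cytotoxic cells begin at 30 UMIs by the rule and reach 1041.

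The rule's other genes followed by construction. *GZMB*, which encodes granzyme B, stood at 574 CPM against 9.56 CPM in comparison cells, and *KLRD1*, encoding the receptor chain CD94, at 165 CPM against 6.49 CPM. The chemokine genes *CCL4* and *CCL5* stood at 1012 and 933 CPM, against 26.1 and 35.8 CPM. *XCL1* and *XCL2* were at 416 and 250 CPM against 42.6 and 26.6 CPM. These values chose the cells and support nothing further. At the edge of the rule, the 52 cytotoxic cells with 30 to 39 *GNLY* UMIs had 2305 CPM of *GNLY* and 2351 CPM of *NKG7*, and the 84 cells with 20 to 29 *GNLY* UMIs and 3 or more effector UMIs had 1694 and 2560 CPM.

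Barcodes with 1 to 100 UMIs hold mostly RNA that is free in the suspension. *GNLY* reached 1697 CPM in these barcodes, and its level in the comparison cells was 4.57% of that value. For *XCL1* the comparison cells reached 76.0% of the level in these barcodes, for *CCL5* 37.1% and for *GZMB* 15.98%. How much of the low effector signal in comparison cells was free RNA was not tested.

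Across 8262 genes with at least 10 CPM in either group, leaving out the rule's 8 genes, 355 were at least 2-fold higher in cytotoxic cells, which is 4.3% of the genes compared, and 176 were at least 2-fold lower, which is 2.13%. Ratios were taken after adding 5 CPM to both levels, and the median log2 ratio of all these genes was -0.05. The higher side was led by granule, chemokine and NK receptor genes, and the lower side by genes such as *CD1B*, *CD1E*, *ARPP21*, *ADA* and *IGLL1*. These comparisons describe 1 library, and since the cells were chosen by transcripts of the same cells they are no test.

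**Figure D2:**
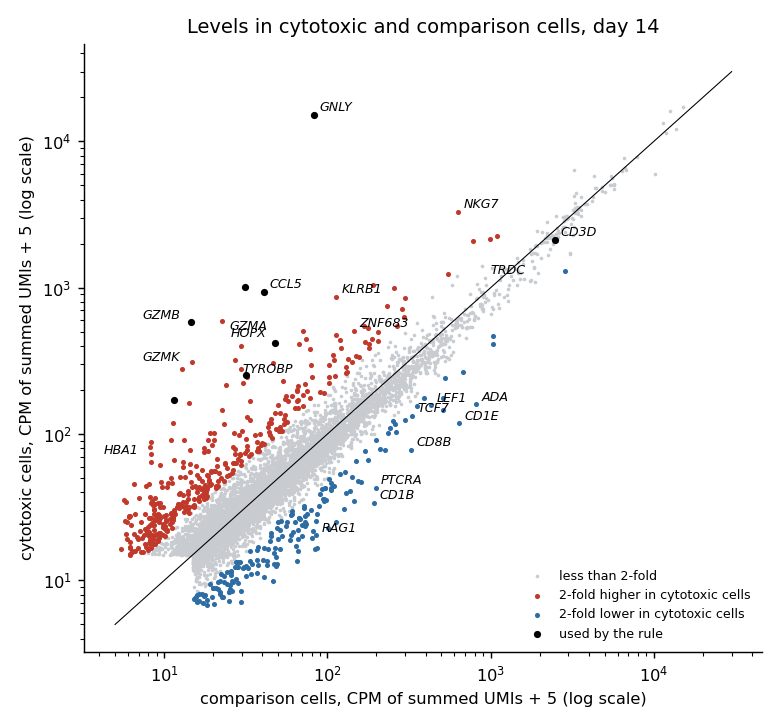
Level of each gene in comparison cells (horizontal axis) and cytotoxic cells (vertical axis), as CPM of summed UMIs plus 5 on log scales, at day 14. Red points are the 355 genes 2-fold higher and blue points the 176 genes 2-fold lower in cytotoxic cells, black points are the genes used by the rule, and *GNLY* lies farthest from the line of equal levels.

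Sequences before the starts of 4 genes are shown because their levels differed strongly between the groups although the rule did not use them. They were picked after their values were seen, among genes with 1 listed start whose window holds no annotated exon. *GZMA* (granzyme A), *TYROBP* (an adaptor of activating NK receptors) and *KLRB1* (the receptor CD161) were among the 20 genes with the highest ratio of cytotoxic to comparison cells at 50 CPM or more, and *NOTCH3* (a Notch receptor of early thymocytes) was among the 20 with the lowest. The 150 bases before the RefSeq start (GRCh38.p14) read as follows on the gene's strand, with capitals for RUNX (TGTGGT), T-box (GGTGTGA), Ets (AGGAAG) and E-box (CAGCTG) motifs on either strand.
GZMA: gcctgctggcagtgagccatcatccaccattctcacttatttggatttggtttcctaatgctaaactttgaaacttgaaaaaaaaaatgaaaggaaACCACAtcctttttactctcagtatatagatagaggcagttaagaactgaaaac
TYROBP: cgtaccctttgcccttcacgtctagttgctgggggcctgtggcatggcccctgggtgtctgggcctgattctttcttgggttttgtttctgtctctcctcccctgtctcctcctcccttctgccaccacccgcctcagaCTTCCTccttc
KLRB1: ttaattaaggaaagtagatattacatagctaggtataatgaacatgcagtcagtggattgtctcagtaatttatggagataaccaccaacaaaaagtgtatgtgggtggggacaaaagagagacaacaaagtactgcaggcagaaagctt
NOTCH3: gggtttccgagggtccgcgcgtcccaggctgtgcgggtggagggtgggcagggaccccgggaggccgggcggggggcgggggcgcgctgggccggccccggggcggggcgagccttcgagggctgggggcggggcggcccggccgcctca
They lie at chr5:55102496-55102645 (plus strand), chr19:35908296-35908445 (minus), chr12:9607917-9608066 (minus) and chr19:15200996-15201145 (minus). The *GZMA* window held 1 RUNX motif and the *TYROBP* window 1 Ets motif. Neither the *KLRB1* nor the *NOTCH3* window held any of the 4 motifs. A RUNX motif was found before 9.09% of the genes that were 2-fold higher in cytotoxic cells (23 of 253 with a listed start), 5.51% of the lower ones (7 of 127), 4.37% of all genes at 10 CPM or more and 6.57% of all 27305 listed starts. An Ets motif was found before 28.5% of the higher genes (72 of 253), 15.7% of the lower ones (20 of 127) and 19.2% of those at 10 CPM or more. The T-box motif was found before 1.19% of the higher, 2.36% of the lower and 1.31% of the genes at 10 CPM or more, and the E-box motif before 7.91%, 9.45% and 6.64% of them. These are descriptions of letters and were not tested.

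The granule genes that the rule did not use were mostly higher too. Of 17 genes on the list, 2 were used by the rule, and of the other 15 a total of 10 were 2-fold higher and none was 2-fold lower, with a median log2 ratio of 2.38. Of the 11 that reached 10 CPM in the comparison cells themselves, 6 were higher. For this list and those below, the shares over all genes compared were 4.3% higher and 2.13% lower. *GZMA* had the highest ratio of the genes at 50 CPM or more that the rule did not use, at 592 CPM (exact 95% Poisson interval 580 to 605) against 17.7 CPM (17.0 to 18.4), and 62.2% of thinned cytotoxic cells had a *GZMA* UMI against 3.87% of comparison cells. *GZMK*, another granzyme gene, stood at 276 CPM (267 to 284) against 7.82 CPM (7.35 to 8.31). Perforin, encoded by *PRF1*, forms the pores through which granzymes enter a target, and its gene stood at 299 CPM against 41.5 CPM. Transcripts of *NKG7*, a granule membrane protein, were already abundant in the comparison cells, at 628 CPM, and stood at 3298 CPM in cytotoxic cells. By contrast, genes for the general machinery of granule release changed little, with *RAB27A* at 47.5 against 34.1 CPM, *UNC13D* at 50.4 against 43.5 CPM and *LAMP1* at 57.0 against 56.0 CPM.

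Of 26 genes of secreted factors and death ligands, 4 were used by the rule, 16 of the rest reached 10 CPM in at least 1 group, 8 of these were 2-fold higher and none lower, with a median log2 ratio of 1.05. Of the 10 that reached 10 CPM in the comparison cells, 2 were higher. *CCL3* stood at 304 CPM against 9.78 CPM and *FASLG*, the ligand of the death receptor FAS, at 61.9 against 6.43 CPM. *CCL4L2* was at 83.2 against 3.27 CPM, although 10.6% of the 50-base words in its last 500 bases also occur in *CCL4*, so its counts are uncertain. The same holds for *XCL2*, of whose words 43.5% also occur in *XCL1*. *IFNG*, the gene of the main NK cytokine, remained low at 18.8 CPM against 3.70 CPM, with a UMI in 8.03% of thinned cytotoxic cells. Within the tumor necrosis factor family, *TNFSF14* was 2-fold higher, at 43.8 against 13.8 CPM, whereas *LTB* stood at 5056 CPM in cytotoxic and 5411 CPM in comparison cells. *IL17A* and *IL22*, cytokines of other innate lymphocytes, had no UMI in the cytotoxic cells.

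Every NK receptor gene that reached 10 CPM in either group was higher. Of 31 NK receptor genes, 1 was used by the rule, 18 of the others reached 10 CPM in at least 1 group, and these 18 were 2-fold higher, with a median log2 ratio of 2.10. The filter itself favours this, since only 10 of the 18 reached 10 CPM in the comparison cells, and those 10 were higher as well. *KLRB1* stood at 859 CPM (844 to 874) against 108 CPM (106 to 110). *KLRC1*, encoding the inhibitory receptor NKG2A, was at 113 against 6.33 CPM, and *KLRC2* and *KLRC3*, encoding related chains, were at 86.8 against 6.06 and 210 against 19.1 CPM. *KLRC1* and *KLRC2* share 44.3% of the 50-base words in their last 500 bases, so their counts are uncertain. *KLRK1*, encoding the activating receptor NKG2D, stood at 96.0 against 14.2 CPM.

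The receptors that mark circulating NK cells were sparse. *FCGR3A*, encoding the antibody receptor CD16, stood at 29.3 CPM against 0.867 CPM and had a UMI in 11.4% of thinned cytotoxic cells (9.60 to 13.5) against 0.441% of comparison cells. *NCAM1*, encoding CD56, was found in 5.90% against 0.554% and *NCR1*, encoding NKp46, in 10.4% against 0.483%. The unthinned shares were 19.6% and 1.02% for *FCGR3A*, 12.9% and 1.78% for *NCAM1*, and 21.9% and 1.49% for *NCR1*. Of the killer immunoglobulin-like receptors and their relative on the list, *KIR2DL1*, *KIR2DL3*, *KIR2DL4*, *KIR3DL1*, *KIR3DL2* and *LILRB1* all had no UMI in the cytotoxic cells. KLR transcripts were thus present and KIR transcripts not detectable at this depth.

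Signaling partners of these receptors were higher as well. Of 12 adaptor genes, 11 reached 10 CPM and 5 were 2-fold higher, and 4 were higher among the 10 that reached 10 CPM in the comparison cells. *TYROBP*, encoding the adaptor DAP12, was at 314 CPM (306 to 323) against 22.2 CPM (21.4 to 23.0), with a UMI in 70.9% against 7.96% of thinned cells. *FCER1G* stood at 445 against 69.4 CPM and *HCST*, encoding the DAP10 partner of NKG2D, at 745 against 228 CPM. Among 20 measured cytokine receptor and JAK-STAT genes, 7 were higher and 3 lower, where 4.3% and 2.13% of all genes compared were. Counting only the 17 that reached 10 CPM in the comparison cells, 4 were higher and 3 lower. *IL2RB*, the receptor chain shared by interleukin 2 and 15, stood at 241 against 27.3 CPM and *IL18RAP* at 59.8 against 8.01 CPM, whereas *IL7R*, which supports early thymocytes, was at 130 against 252 CPM and did not reach the limit.

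Transcription factors of innate lymphocytes were partly raised. Of 19 measured, 9 were 2-fold higher and none lower, with a median log2 ratio of 0.94. Among the 16 that reached 10 CPM in the comparison cells, 6 were higher. *HOPX* stood at 397 CPM (387 to 407) against 24.7 CPM (23.8 to 25.5), and *ID2*, an inhibitor of E proteins needed for NK cells, at 379 against 73.3 CPM. The T-box genes *EOMES* and *TBX21* were at 40.6 against 3.03 CPM and 72.3 against 9.42 CPM. *ZNF683*, encoding Hobit, stood at 505 against 140 CPM. *ZBTB16*, encoding PLZF, which directs NKT and other innate-like T cells, did not differ by the limit, at 192 against 160 CPM, nor did *GATA3*, at 185 against 174 CPM.

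**Figure D3:**
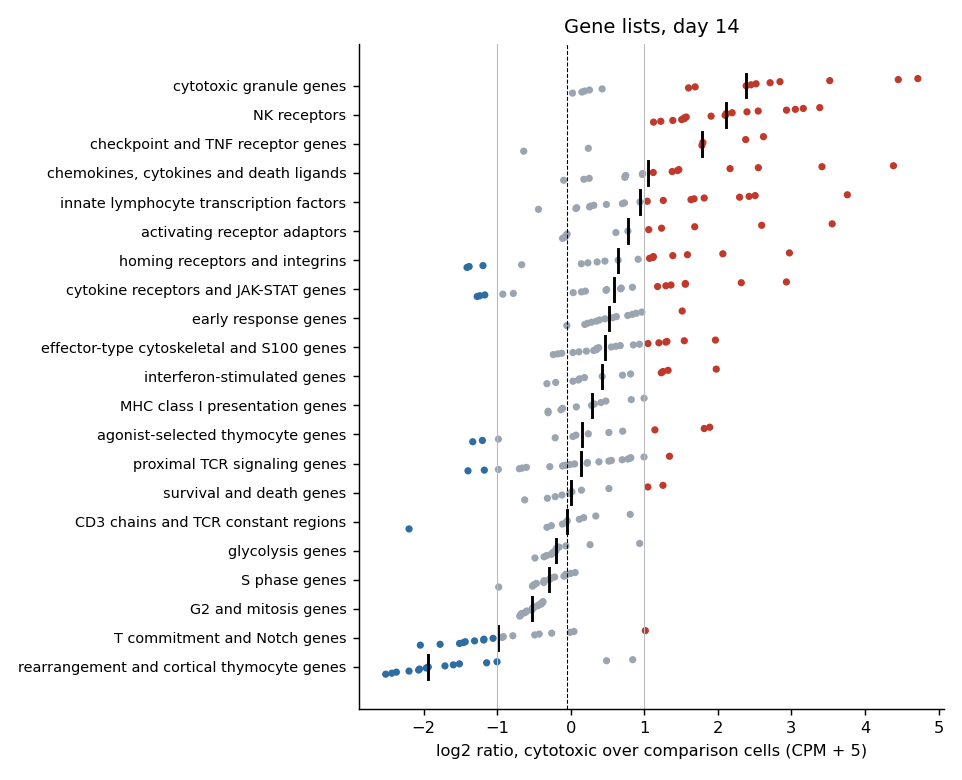
Log2 ratio of cytotoxic to comparison cells (horizontal axis, CPM plus 5) for each measured gene of 21 lists, 1 point per gene without the rule's genes, with red for 2-fold higher and blue for 2-fold lower. Black bars are list medians, from 2.38 for granule genes to -1.94 for rearrangement and cortical thymocyte genes, and the dashed line is the median of all genes, -0.05.

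The cells kept the CD3 complex of T-lineage cells. Every thinned cytotoxic cell had a UMI of at least 1 of *CD3D*, *CD3E* and *CD3G*, and 88.7% of them had all 3 against 91.5% of comparison cells. *CD3D* was not required of the cytotoxic cells, yet 1016 of the 1155 had at least 10 *CD3D* UMIs and none had 0. The comparison cells were chosen by at least 10 *CD3D* UMIs, so their share with all 3 was partly set by the rule. *CD3E* stood at 596 CPM (583 to 608) against 616 CPM (612 to 620), and *CD3G* at 710 against 890 CPM. Of the 10 CD3 and TCR constant region genes compared, only *PTCRA*, the surrogate chain of the first TCR checkpoint, passed the limit, and it was lower. *CD3E* was found in 94.1% of thinned cells with a *TYROBP* UMI and in 94.0% of those without. In barcodes with 1 to 100 UMIs *CD3E* stood at 498 CPM and *CD3D* at 2925 CPM, and the cytotoxic cells were at 119.6% and 72.4% of these levels, so the part of free RNA in these shares was not tested.

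Of the TCR constant regions, the delta region was found in most cells of both groups and the alpha region in a minority. *TRDC*, the delta chain constant region (chr14:22462932-22465787), stood at 1164 CPM (1147 to 1181) against 919 CPM (914 to 924), with a UMI in 96.9% (95.6 to 97.8) against 90.2% (89.5 to 90.9) of thinned cells. *TRAC*, the alpha chain constant region (chr14:22547506-22552156), was at 68.3 CPM (64.2 to 72.6) against 36.9 CPM (35.9 to 37.9), with a UMI in 28.5% (25.8 to 31.3) against 16.1% (15.3 to 17.0). The unthinned shares were 98.9% and 96.4% for *TRDC*, and 49.3% and 35.0% for *TRAC*. The ratio of *TRDC* to *TRAC* was 17.0 in cytotoxic and 24.9 in comparison cells. Thinned cytotoxic cells with a *TRDC* UMI had a *TRAC* UMI in 28.7% of cases (25.9 to 31.5), and the 34 cells without one in 23.5% (10.7 to 41.2). In comparison cells the shares were 17.2% (16.3 to 18.1) and 6.52% (4.80 to 8.63).

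These transcripts do not tell a rearranged from an unrearranged locus. The variable segments that would do so were almost absent: 54 *TRAV* segments summed to 0.981 CPM, 67 *TRBV* segments to 0.131 CPM and 3 *TRDV* segments to 0 CPM in cytotoxic cells. A 3′ library reads the end of a transcript that is far from these segments. *TRGV9* was the exception, at 42.1 CPM (38.9 to 45.5) against 25.8 CPM (24.9 to 26.6). *TRBC1* and *TRBC2* stood at 520 and 395 CPM, against 460 and 476 CPM, and the pair shares 8.43% to 8.87% of the words in its ends.

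The label of these cells as NK/NKT-like was checked against their transcripts. All 5 markers behind the label, *GNLY*, *CCL5*, *GZMB*, *XCL1* and *KLRD1*, were used by the rule and check nothing. The other genes gave a mixed picture, with *CD3E* and *CD3G* within the 2-fold limit, KLR receptors and *TYROBP* higher, *NCAM1* and *NCR1* in few cells and no KIR. *ZBTB16* did not differ by the limit and was widespread, with a UMI in 53.6% of thinned cytotoxic and 46.4% of thinned comparison cells. The cells are therefore called cytotoxic cells here.

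The opposite shift was found in genes of rearrangement and of cortical thymocytes. Of 18 genes, 15 were measured, and 13 of them were 2-fold lower and none higher, with a median log2 ratio of -1.94. Leaving out cluster 6, the median was -2.58. *RAG1* stood at 15.3 CPM (13.4 to 17.4) against 80.2 CPM (78.7 to 81.8), and at 4.36 CPM without cluster 6, and *RAG2* at 5.63 against 35.7 CPM, and at 0.976 CPM without it. *PTCRA* stood at 38.0 against 193 CPM, and at 9.84 CPM without cluster 6. *CD1E* and *CD1B*, lipid-presenting molecules of cortical thymocytes, were at 114 against 635 CPM and 28.8 against 188 CPM, and at 55.1 and 8.49 CPM without cluster 6. The remaining signal of these genes was thus concentrated in the 68 cells of cluster 6.

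Free RNA bears on such low values. In barcodes with 1 to 100 UMIs, *RAG1* was at 83.9 CPM and *PTCRA* at 223 CPM. Cytotoxic cells without cluster 6 reached 5.19% and 4.41% of these levels. For *CD8B* and *CD1E* they reached 16.1% and 12.2%. What part of these remainders was free RNA was not tested.

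The 2 chains of CD8 moved apart. *CD8A* (chr2:86784610-86808396) stood at 49.8 CPM (46.4 to 53.5) in cytotoxic and 34.2 CPM (33.2 to 35.2) in comparison cells, whereas *CD8B* (chr2:86815339-86861924), the neighbouring gene on the same strand, was at 72.9 CPM (68.6 to 77.3) against 319 CPM (316 to 322). The ratio of *CD8A* to *CD8B* was 0.684 against 0.107, and 1.46 without cluster 6. A *CD8A* UMI was found in 17.6% against 13.7% of thinned cells and a *CD8B* UMI in 18.4% (16.1 to 20.8) against 60.4% (59.3 to 61.6). Without cluster 6 the *CD8B* share was 14.7%, and the unthinned shares were 29.8% and 80.5%. Among comparison cells with a *CD8A* UMI, 83.2% also had *CD8B*, whereas among cytotoxic cells with a *CD8A* UMI, 24.1% (18.2 to 30.8) did. *CD4* was found in 1.11% against 10.2% of thinned cells, and in 0.295% of thinned cytotoxic cells without cluster 6.

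**Figure D4:**
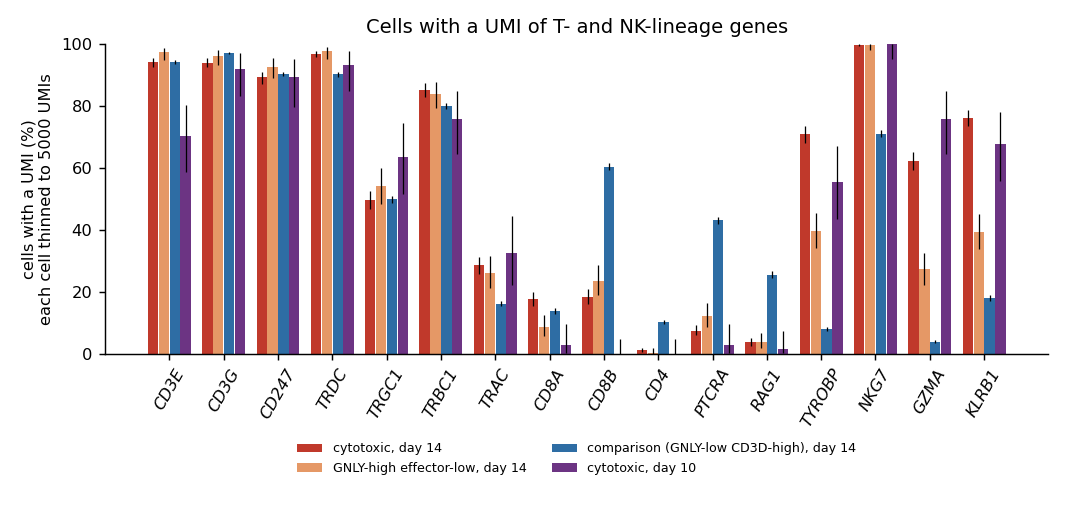
Percentage of cells with a UMI of each gene (vertical axis) after thinning to 5000 UMIs, in 1084 cytotoxic, 298 effector-low and 7035 comparison cells of day 14 and 74 cells chosen by the same rule at day 10, with exact 95% binomial intervals. *CD3E* and *TRDC* are common in all 4 groups, *CD8B* stands at 60.4% in comparison and 18.4% in cytotoxic cells, and *TYROBP* at 7.96% and 70.9%.

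Genes of T cell commitment followed the thymocyte genes. Of 18 measured T commitment and Notch genes, 9 were 2-fold lower and 1, *ETS1*, was 2-fold higher, at 260 against 126 CPM. *TCF7* and *LEF1*, transcription factors of early thymocytes, stood at 128 against 325 CPM and 152 against 427 CPM. *BCL11B*, which fixes the T cell fate, was at 151 against 349 CPM. *NOTCH3* was at 14.6 CPM (12.7 to 16.6) against 75.9 CPM (74.4 to 77.4), and at 6.61 CPM without cluster 6. The Notch target *HES1* was at 5.23 against 22.7 CPM. *ADA*, the purine enzyme abundant in cortical thymocytes, was among the 20 genes with the lowest ratios, at 155 against 811 CPM. Without cluster 6 the cytotoxic cells had 82.6 CPM of *ADA*. Of 22 measured proximal TCR signaling genes, 19 stayed within the limit, among them *LCK* at 325 against 398 CPM and *ZAP70* at 70.7 against 76.8 CPM. *TXK* alone was higher, at 35.5 against 10.99 CPM, and *CD2* and *CD28* were lower. Over all genes compared, 4.3% were higher and 2.13% lower, so so few genes say little about this list.

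Surface molecules of migration split in both directions. Of 17 homing genes measured, 7 were higher and 3 lower, where 4.3% and 2.13% of all genes compared were. Counting only the 15 that reached 10 CPM in the comparison cells, 5 were higher and 3 lower. *CX3CR1*, a receptor of circulating cytotoxic cells, stood at 59.8 against 3.26 CPM, *CD44* at 468 against 108 CPM and *CXCR3* at 214 against 68.1 CPM. *CCR9*, which guides thymocytes, stood at 7.98 against 29.5 CPM and *CXCR4* at 60.8 against 146 CPM. Of 6 measured checkpoint and tumor necrosis factor receptor genes, 4 were higher, led by *TNFRSF18* at 409.5 against 62.5 CPM. Among the 5 that reached 10 CPM in the comparison cells, 3 were higher.

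Genes of cell division were somewhat lower but none passed the limit. All 18 genes of G2 and mitosis and all 17 of S phase were measured, with median log2 ratios of -0.52 and -0.30. *MKI67* was found in 32.3% against 48.4% and *TOP2A* in 35.9% against 45.0% of thinned cells. Among cells of 10000 to 20000 UMIs the median of the G2 and mitosis genes was -0.26. The 13 glycolysis genes stayed within the limit, with a median of -0.20, and so did 82 of 82 measured ribosomal protein genes, with a median of -0.04. Of 13 interferon-stimulated genes measured, 4 were higher, where 4.3% of all genes compared were. Among the 12 that reached 10 CPM in the comparison cells, 3 were higher. The higher genes included *IFITM2* at 998 against 250 CPM and *IFITM1* at 419 against 165 CPM, which share 11.1% of the words in their ends. None of 11 measured genes of MHC class I presentation passed the limit, and *HLA-E*, whose product is the ligand of the receptor made by *KLRC1* and *KLRD1*, came closest, at 318 against 157 CPM.

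The smaller lists gave mixed counts. Of 12 measured genes known from thymocytes selected by agonists, 3 were higher and 2 lower, and *NR4A2* stood at 23.2 against 2.62 CPM. Among the 10 that reached 10 CPM in the comparison cells, 2 were higher and 2 lower. Of 10 measured survival genes, 2 were higher, *CFLAR* at 146 against 58.4 CPM and *BIRC3* at 71.1 against 31.8 CPM. Of 14 measured early response genes, 1 was higher, *BTG1* at 844 against 292 CPM. With 4.3% of all genes compared being higher, a single gene says little about this list. Of 22 cytoskeletal and S100 genes, 6 were higher, led by *AHNAK* at 56.0 against 10.6 CPM.

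Markers of monocytes, stroma and megakaryocyte, erythroid and mast cells were near 0, and those of other types were not all so. The 8 monocyte markers summed to 2.22 CPM in cytotoxic and 2.21 CPM in comparison cells, with 6 of the 8 at 0 in the cytotoxic cells. The 5 stroma markers summed to 3.53 and 2.43 CPM, with *DCN* and *COL3A1* at 0 in cytotoxic cells. The 9 markers of megakaryocyte, erythroid and mast cells summed to 1.504 and 2.30 CPM with 4 at 0, and the 6 dendritic cell markers to 20.02 and 13.3 CPM with none at 0. Of the dendritic cell markers *IRF8* was 2-fold higher, at 12.0 against 2.71 CPM. Of the 4 endothelial markers 3 were at 0 and *PECAM1* stood at 23.6 and 30.7 CPM. Of the 6 B cell markers *MS4A1* and *PAX5* were at 0, and *CD79A* stood at 110 and 99.3 CPM in both groups. The 9 markers of type 2 innate lymphoid cells summed to 119 and 106 CPM with 2 at 0, *IL1RL1* being 2-fold higher at 46.3 against 19.2 CPM and *PTGDR2* 2-fold lower at 23.1 against 54.5 CPM, and the 6 of early T progenitors to 43.2 and 26.8 CPM with none at 0.

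Alpha-globin transcripts were an exception in kind. *HBA1* (chr16:176680-177522) stood at 68.3 CPM (64.2 to 72.6) in cytotoxic and 3.27 CPM (2.97 to 3.59) in comparison cells, and *HBA2* (chr16:172876-173710) at 30.4 and 0.649 CPM. The ends of both genes share 78.9% to 86.5% of their words, so they are best read as a sum. The embryonic and fetal globin genes *HBE1*, *HBG1* and *HBG2* had no UMI in the cytotoxic cells. Only 77 of 1155 cytotoxic cells had an alpha-globin UMI (6.67%), against 7.35% of the 313 effector-low cells and 1.11% of comparison cells. *HBA1* stood at 36.7 CPM in the effector-low cells, so its higher level was not particular to the cytotoxic cells. Within the cytotoxic cells, 10 cells held 80.04% of the 1508 UMIs, with 361 in a single cell. The level was thus set by few cells, and *HBA1* in barcodes with 1 to 100 UMIs was 17.4 CPM.

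The rule of the effector-low cells keeps the 6 effector genes low, while *GNLY* stood at 8824 CPM in these cells. Against the comparison cells, 252 of 8193 genes were 2-fold higher (3.08%) and 120 were 2-fold lower (1.46%). *NKG7* was at 2382 CPM, *GZMA* at 143 CPM, *TYROBP* at 157 CPM and *ZNF683* at 648 CPM, each above the comparison cells, and *ZNF683* was also above the cytotoxic cells at 505 CPM. *RAG1* was at 10.7 CPM, *PTCRA* at 38.6 CPM and *CD8B* at 80.4 CPM, each below the comparison cells and near all cytotoxic cells. Without cluster 6 the cytotoxic cells stood at 4.36, 9.84 and 35.8 CPM. These values cannot be set against the effector-low cells on like terms, since no effector-low cells were left out. High Scrublet scores made up 4.23% of cytotoxic cells without cluster 6 and 9.58% of effector-low cells. *CD1E* was at 195 CPM, between the cytotoxic cells at 114 CPM and the comparison cells at 635 CPM.

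Cytotoxic and effector-low cells differed in fewer genes, with 54 of 8140 genes 2-fold higher in cytotoxic cells (0.663%) and 47 2-fold lower (0.577%). *CCL3* stood at 304 against 12.1 CPM, *KLRC1* at 113 against 14.6 CPM and *CEBPD* at 76.3 against 5.81 CPM. The 6 effector genes split these 2 groups, and genes found with them are carried along. Of thinned cytotoxic cells with a *CCL3* UMI 84.7% had *CCL4*, against 45.0% of those without. How far the differences follow from the rule was not tested. Higher in effector-low cells were *NPPC* at 60.9 against 10.4 CPM, *OSM* at 83.2 against 18.5 CPM, *PTGDR2*, a prostaglandin receptor of type 2 lymphocytes, at 80.6 against 23.1 CPM, and *EGLN3*, an oxygen-sensing enzyme, at 527 against 239 CPM. The comparison cells had 42.4, 68.0, 54.5 and 177 CPM of these genes, in that order. *EGLN3* was at 562 CPM in cluster 5 of the cytotoxic cells, described below. The share of cells among the highest Scrublet scores was 9.58% in effector-low and 9.70% in cytotoxic cells.

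The cytotoxic cells varied among themselves. Clustering on other genes than those of the rule and of the S and G2 lists gave 6 clusters of 68 to 344 cells. A cluster's leading genes follow from the clustering and describe it only, with each level set against the other cytotoxic cells. Cluster 1, with 344 cells, was led by *PTGDS* (248 against 75.2 CPM), a prostaglandin synthase gene, and by *ISG20* and *ZNF683*, the latter at 839 CPM. *PTGDS* was not particular to cluster 1, standing at 309 CPM in cluster 4. Cluster 4, with 170 shallow cells at a median of 6558 UMIs, was led by *FGFBP2* (92.1 against 10.3 CPM), *FCGR3A* (133 against 20.6 CPM) and *CEBPD*. It had 25797 CPM of *GNLY*, 1545 CPM of *GZMA* and 799 CPM of *GZMK*, each the highest of the 6 clusters. The rule asks for 30 *GNLY* UMIs at any depth, so shallow cells needed a higher *GNLY* CPM to pass. In *GNLY* UMIs per cell the median was 163.5 in cluster 4 and 215 in cluster 5. *CD3E* in cluster 4 was at 589 CPM, within the range of 476 to 671 CPM over the clusters. Of thinned cytotoxic cells with an *FCGR3A* UMI 88.7% (81.8 to 93.7) also had *CD3E*, against 94.8% (93.2 to 96.1) of those without.

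Cluster 2, with 225 cells, was led by genes of mitosis, among them *ASPM* at 487 against 49.3 CPM and *TOP2A* at 1112 against 134 CPM, and 91.2% of its thinned cells had an *MKI67* UMI. Cluster 3, with 189 cells, was led by chemokine and cytokine genes, *CCL4L2* (275 against 40.4 CPM), *CSF2* (76.0 against 10.5 CPM) and *CRTAM*, an activation receptor, and its *XCL1* and *XCL2* levels of 875 and 584 CPM were the highest of the clusters. Its leading genes also held *GINS2* and *UNG*, which act in DNA replication.

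Cluster 5, with 159 cells, was led by *HBA2*, *HBA1* and *HILPDA*, a lipid droplet gene induced in low oxygen, at 152 against 23.3 CPM. Of the 1508 alpha-globin UMIs, 909 lay in this cluster. Only 22 of its 159 cells (13.8%) had any, and 10 cells held 96.7% of the 909. *IL4* stood at 106 against 19.1 CPM and *MAF* at 211 against 52.4 CPM, and the granzyme genes *GZMB* and *GZMA* were at 196 and 252 CPM, against 574 and 592 CPM in all cytotoxic cells, while *GZMM* was at 444 against 500.4 CPM.

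Cluster 6 stood apart. Its 68 cells were led by *PTCRA* (228 against 9.84 CPM), *IGLL1*, *CD1B* and *ARPP21*, and *RAG1* was at 89.3 CPM against 80.2 CPM in the comparison cells. *CD8B* stood at 323 CPM, as in the comparison cells at 319 CPM, while *GNLY* was at 6270 CPM, the lowest of the clusters. The median of *GNLY* UMIs per cell was 132 in cluster 6 and 119 in the shallower cluster 3. The same barcodes thus held granule and thymocyte transcripts, at the highest depth of the clusters, and 66 of the 68 were among the highest Scrublet scores. In clusters 1 to 4, *CD8B* stood at 23.7 to 34.6 CPM and the ratio of *CD8A* to *CD8B* at 1.46 to 2.75. Cluster 5 lay between, with *CD8B* at 64.0 CPM and a ratio of 0.804.

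**Figure D5:**
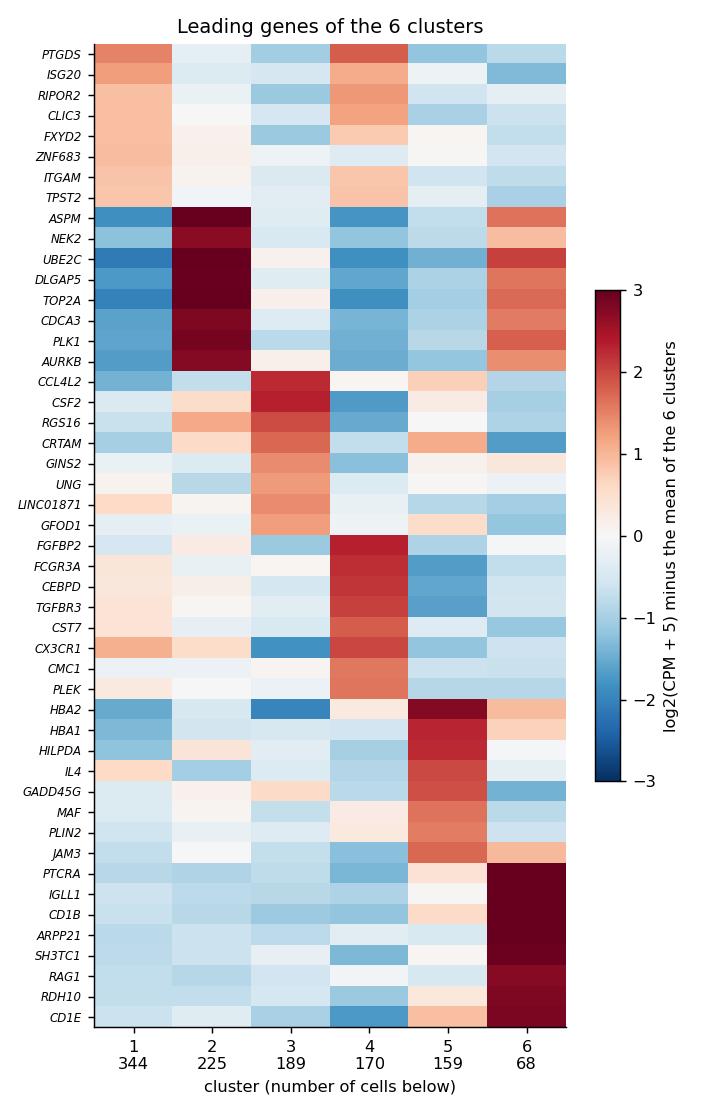
Level of the leading genes (rows, up to 8 per cluster) in the 6 clusters of cytotoxic cells (columns, with cell numbers), as log2(CPM plus 5) minus the mean of the 6 clusters, cut at -3 and 3. Mitotic genes stand out in cluster 2, *FCGR3A* and *FGFBP2* in cluster 4, alpha-globin genes, from few cells, in cluster 5 and thymocyte genes in cluster 6.

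The same rule found 95 cells at day 10, or 0.784% of 12114 cells (0.635 to 0.958), with a median of 6929 UMIs. Of these, 74 could be thinned. *GNLY* stood at 9864 CPM, and the granule list had a median log2 ratio of day 14 to day 10 of 0.02, with *PRF1* at 537 CPM (490 to 587) against 299 CPM and *NKG7* at 4152 against 3298 CPM. *GZMK* was at 139 CPM (116 to 166) against 276 CPM at day 14. *TYROBP* and *KLRB1* were at 239 and 586 CPM, against 314 and 859 CPM. The day 10 cells were chosen by the same granule and effector transcripts, so these levels are a description.

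Other transcripts of the day 10 cells differed. *CD8A* and *CD8B* had 3 UMIs each over all 95 cells, with a *CD8B* UMI in 2 of the 95, and 0 of the 74 thinned cells had a *CD8B* UMI, which allows a share of cells with a UMI of up to 4.05%. *CD3E* was found in 70.3% of thinned day 10 cells (58.5 to 80.3) against 94.1% at day 14. *HBA1* stood at 234 CPM (203 to 267) and was found in 32.4% of thinned cells (22.0 to 44.3), against 4.24% at day 14. *CXCR6*, a tissue homing receptor, was at 8.90 CPM against 104 CPM at day 14, *CX3CR1* at 171 against 59.8 CPM, and *EGLN3* at 11.1 against 239 CPM. The 8 monocyte markers summed to 267 CPM at day 10 against 2.22 CPM at day 14, with *HLA-DRA* at 187 CPM and *LYZ* at 79.0 CPM. Their part in the other differences was not tested.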

How the data were processed

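The authors sequenced 1 library of sorted cells per day, and per the labels Cell Ranger 4.0.0 and GRCh38 were used. The deposited files hold raw UMI counts of 36601 genes for every barcode. The labels also name Seurat. The members, gene lists and comparisons were chosen with earlier results of these data known. Kept barcodes had 1000 to 7000 genes and no more than 18% of UMIs from mitochondrial genes. Depth was 217681173 UMIs at day 10 and 169758367 at day 14. Doublets were kept. Scrublet's automatic threshold called 0 cells at day 14, so the 638 highest scores were called, 0.8% for each 1000 cells. UMI sums per group were scaled to CPM, their exact Poisson intervals are at 95%, and shares have exact binomial intervals (scipy 1.17.1, numpy 2.4.6, pandas 2.3.3, Python 3.11.15). A share of 0 allows up to 3 cells. Named genes were the 20 highest and 20 lowest ratios at 50 CPM or more, list members, and the 8 leading genes of each cluster, and others were chosen after their values were seen. Clusters used scanpy 1.11.5, 1500 variable genes, 20 components, 15 neighbors and resolution 0.5. The 2-fold calls were tested on simulated data. Positions come from GENCODE and promoters from RefSeq.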

Additional observations from a re-analysis of the deposited data

How the results depend on the processing

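Gene counts, 3 list medians, the cytotoxic share and the shares of cells with *TRDC*, *TRAC* or *CD8B* were recomputed with the *GNLY* limit at 15 or 60 UMIs, the rule applied to thinned cells, cells of 10000 to 20000 UMIs, a mitochondrial limit of 10%, and no high Scrublet scores. Gene counts and medians were also recomputed with 2 other comparison groups and another scaling, weighting, pseudocount and filter, and the shares of these 3 genes without thinning. The effector-low, cluster, globin, CD3 and day 10 values had no such alternatives. Leaving out cluster 6 and taking all cells with 30 *GNLY* UMIs were chosen after seeing the data. Of 100 alternative values, 87 stayed within 1.5-fold or, for shares, within the interval, 13 moved and 0 reversed. With a filter at 50 CPM, which compares 3110 genes, 160 were higher and 87 lower. Without cluster 6, which compares 8271 genes, 404 were higher and 232 lower. The median of the rearrangement and cortical thymocyte genes was -2.69 without the high Scrublet scores and -2.58 without cluster 6. The *CD8B* share was 15.5% among cells of 10000 to 20000 UMIs, 14.1% without high Scrublet scores, 14.7% without cluster 6 and 29.8% without thinning. Without thinning the *TRDC* share was 98.9% and the *TRAC* share 49.3%. The cytotoxic share of the library was 14.3% at 15 *GNLY* UMIs, 11.2% at 60 and 12.2% among cells of 10000 to 20000 UMIs. Median-ratio scaling moved the median of all genes from -0.05 to 0.05. With 1 library per day and no replicates, none of these values shows how another culture would vary. No paired analysis was possible because each day has 1 library.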
